A study of Mus musculus with 24 samples.

Results

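Night was set against day in the liver of wild-type mice by RNA-seq: the 3 libraries of circadian time 14 (CT14, the early subjective night) against the 3 of circadian time 2 (CT2, the early subjective day). These are 6 of the 24 libraries of the series, picked by their labels. Earlier results of these data were known when the comparison was chosen. The wild-type mice (WT) were Bmal1+/+ animals on a C57BL/6J background, bred from Bmal1 heterozygotes. Of the other genotypes, each also with 3 libraries at each of the 2 times, Bmal1 f/f mice without Cre (F) were used as another line with intact Bmal1, and mice lacking Bmal1 throughout the body (Bmal1-/-, KO) as a line without it. F and KO share no library with WT. Mice with Alb-Cre and Bmal1 f/f entered only the estimate of the spread between replicates. Alb-Cre acts chiefly in hepatocytes, and no value of that group is given here. The sources used here do not give age, sex, lighting or feeding at collection. The labels do not say that the replicates of a group are separate animals, so the p-values measure the spread between these samples, which may be technical. In whole liver, fewer cells of a type and less RNA per cell cannot be told apart.

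The circadian clock of a liver cell is a loop of transcription and repression. BMAL1 (gene Bmal1), paired with CLOCK or its relative NPAS2, binds E-box sequences and switches on the genes of its own repressors, the PER and CRY proteins, CIART and the nuclear receptors NR1D1 and NR1D2. NR1D1 and NR1D2 compete with the ROR receptors at RORE sequences and hold down Bmal1 and Npas2, while the proteins DBP, TEF and HLF act at D-box sequences and are opposed by NFIL3. In the liver this loop, together with feeding, body temperature and hormones, times the synthesis of fat, glycogen, bile acids, heme and chaperones.

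Promoter sequences of genes that carry the comparison were taken from RefSeq (build GRCm38.p6), 250 bases up to the annotated start, read 5′ to 3′ on the gene's strand. They are shown because each holds a match to one of the elements of this loop, printed in capitals. Ciart (chr3:95882229-95882478, minus strand) has 3 E-boxes (CACGTG), which begin 116, 58 and 44 bases before the start. Per1 (chr11:69098699-69098948, plus strand) has 1, beginning 166 bases before the start. The window of another annotated Per1 start (chr11:69099902-69100151) has none. Tef (chr15:81802423-81802672, plus strand) has 1 E-box, beginning 127 bases before the start. The window of another Tef start (chr15:81811164-81811413), not shown, also has 1, beginning 138 bases before that start. Per3 (chr4:151044666-151044915, minus strand) has 2 D-boxes (TTATGTAA), beginning 205 and 158 bases before the start. For Bmal1, 30 bases just inside the transcript are given (chr7:113207528-113207557, plus strand). There the RORE lies from base 27 to base 37 after the more downstream of its annotated starts.
Ciart: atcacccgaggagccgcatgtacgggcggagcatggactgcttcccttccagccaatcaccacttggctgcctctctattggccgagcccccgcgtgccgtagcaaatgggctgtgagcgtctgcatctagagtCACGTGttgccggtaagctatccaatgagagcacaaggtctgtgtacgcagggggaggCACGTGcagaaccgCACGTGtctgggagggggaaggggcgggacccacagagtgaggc
Per1: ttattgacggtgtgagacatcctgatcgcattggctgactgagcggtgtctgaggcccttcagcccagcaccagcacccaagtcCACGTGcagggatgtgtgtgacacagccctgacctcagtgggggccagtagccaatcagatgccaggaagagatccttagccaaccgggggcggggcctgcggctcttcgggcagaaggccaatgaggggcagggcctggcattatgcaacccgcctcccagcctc
Tef: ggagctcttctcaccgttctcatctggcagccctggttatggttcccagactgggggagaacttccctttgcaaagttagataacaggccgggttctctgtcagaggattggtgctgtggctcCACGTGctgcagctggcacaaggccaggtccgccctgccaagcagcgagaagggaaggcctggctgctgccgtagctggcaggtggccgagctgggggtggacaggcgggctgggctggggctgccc
Per3: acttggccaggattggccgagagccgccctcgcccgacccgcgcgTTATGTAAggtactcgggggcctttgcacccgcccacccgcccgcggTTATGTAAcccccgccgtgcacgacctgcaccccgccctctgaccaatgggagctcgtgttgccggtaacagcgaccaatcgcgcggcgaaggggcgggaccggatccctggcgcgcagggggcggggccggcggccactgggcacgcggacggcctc
Bmal1: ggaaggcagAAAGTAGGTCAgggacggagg
A match is a description of these letters and no evidence of binding. Matches were counted over windows from 250 bases before to 50 after the start, and the E-box stood in the windows of 4 of the 11 E-box clock genes with a window (Bhlhe41, Ciart, Per1 and Tef), and in those of 10.8% of 12864 tested genes with a window.

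Estimated counts per WT library summed to between 111349982 and 131544733. Replicates correlated across genes with Pearson's r of 0.964 to 0.968 on the log2 scale, against 0.954 to 0.962 between libraries of different times. Albumin (Alb), the chief secreted protein of hepatocytes, was the top gene in each WT library with 5.86% to 9.39% of the count, and the other hepatocyte markers were present. The summed level of 10 marker lists for other cells (Kupffer cells, endothelium, stellate cells, cholangiocytes, lymphocytes, neutrophils, erythroid cells, adipocytes, pancreatic acinar cells and spermatids) overlapped between the times. Of their 108 tested markers 0 were called by edgeR's quasi-likelihood test, beside 2.54% of all 20514 genes tested. At an unadjusted p under 0.05 there were 8, beside 2534 of all genes tested. DESeq2 called 4 of the markers and limma on log2(TPM + 1) called 1. By the two-sided exact permutation test the p of these 10 sums and of the hepatocyte sum ran from 0.2 to 1.0 (adjusted over the 11 lists, 0.825 to 1.0), where the smallest p that 3 against 3 allows is 0.1. Among 11 neutrophil markers 1, and among 11 spermatid markers 4, were at 0 in all 6 libraries. CT2 replicate 1 stood apart from the other CT2 libraries in acute phase transcripts, and CT2 replicate 3 in Elovl3, Pitx3 and Loxl4. Both are named beside the results they touch.

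Between CT2 and CT14, 521 of 20514 genes tested changed in WT liver (2.54%): 226 rose toward the night (1.1%) and 295 fell (1.44%). A change here is a Benjamini-Hochberg adjusted p under 0.05 in edgeR's quasi-likelihood test, and all log2 fold changes are CT14 over CT2. The value after ± is an SE worked back from that test. It is the size of the log2 fold change over the square root of the test's F statistic. The rises had a median log2 fold change of 1.26 and the falls of -1.23, beside 0 over all genes tested. At least a 2-fold change was seen for 336 of the 521 (147 higher, 189 lower) and at least a 4-fold change for 123 (50 higher, 73 lower). In 514 of the 521 the 3 libraries of one time lay wholly above the 3 of the other, which 21.0% of all genes tested did. The count moved with the libraries used: without CT2 replicate 2 it was 332, without CT14 replicate 2 it was 270, and without 7 libraries of other genotypes that stood apart in earlier results it was 988. Of the 521 genes, 215 were called in each of the 6 fits that left out 1 WT library.

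The activators of the clock were high by day. Npas2, which encodes the partner that can replace CLOCK, measured 6.19, 10.97 and 9.65 CPM by day and 0.0657, 0.0357 and 0.06996 CPM by night, in CPM, counts scaled to the size of the library. The 3 night libraries together held 20 of its counts and the 3 day libraries 3141, and the groups were far apart (log2 fold change -7.26 ± 0.40, adjusted p = 7.68e-10). Npas2 had the smallest p of all genes tested. Bmal1 measured 30.7, 33.8 and 31.2 CPM by day and 6.46, 2.93 and 8.16 CPM by night. Every day library was at least 3-fold above every night library, and the transcript fell at night (log2 fold change -2.45 ± 0.37, adjusted p = 0.000431). Clock, whose product pairs with BMAL1, read 47.4, 31.3 and 50.4 CPM by day and 21.8, 26.98 and 25.2 CPM by night. The Clock groups did not overlap either, yet the difference did not pass (log2 fold change -0.80 ± 0.49, adjusted p = 0.595).

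The genes of the repressors moved the other way. Per1, Per2 and Per3 encode the PER proteins that carry the delayed repression. Per1 measured 2.25, 1.87 and 1.39 CPM by day and 30.5, 34.6 and 28.8 CPM by night, and rose (log2 fold change 4.09 ± 0.68, adjusted p = 0.00175). Per2 measured 4.78, 3.46 and 5.23 CPM by day and 50.2, 60.3 and 69.7 CPM by night (log2 fold change 3.74 ± 0.38, adjusted p = 5.08e-06). Per3 measured 1.05, 1.003 and 0.533 CPM by day and 20.5, 21.4 and 27.3 CPM by night (log2 fold change 4.74 ± 0.37, adjusted p = 1.5e-07). All 3 Per genes were low in every day library and more than 8-fold higher in every night library. Of the cryptochromes, which bind PER and silence BMAL1, Cry2 rose from 13.6, 21.3 and 19.1 CPM to 35.8, 38.5 and 46.1 CPM (log2 fold change 1.16 ± 0.16, adjusted p = 0.000197). Cry1, placed with the RORE genes because its peak comes late at night, measured 23.97, 24.8 and 20.4 CPM by day and 26.6, 22.1 and 30.1 CPM by night and overlapped between the times (log2 fold change 0.19 ± 0.18, adjusted p = 0.842). Ciart, a repressor that blocks BMAL1 at the E-box and whose promoter above holds 3 of them, measured 0, 0.0514 and 0.0444 CPM by day and 11.4, 16.7 and 6.48 CPM by night. Its 3 day libraries together held 11 counts and its night libraries 4005, so the size of its rise rests on very few day counts (log2 fold change 8.47 ± 1.27, adjusted p = 0.000576). The log2 fold change was 7.88 for Ciart and 6.45 for Dbp without CT2 replicate 1.

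Of the receptors that act at the RORE, Nr1d2 measured 9.204, 8.38 and 9.03 CPM by day and 54.6, 49.9 and 44.6 CPM by night and rose (log2 fold change 2.49 ± 0.32, adjusted p = 6.79e-05). Nr1d1, its close relative, read 7.09, 6.96 and 21.02 CPM by day and 26.2, 18.7 and 17.1 CPM by night. CT2 replicate 3 lay within the night range for Nr1d1, and no change was called (log2 fold change 0.82 ± 0.51, adjusted p = 0.609). Nfil3, the repressor at D-boxes, measured 33.7, 36.1 and 38.5 CPM by day and 25.5, 21.4 and 19.96 CPM by night and was lower at night (log2 fold change -0.70 ± 0.18, adjusted p = 0.0389). The call of Nfil3 held only without CT14 replicate 1 (adjusted p up to 0.172). The adjusted p was 0.0557 for Nfil3 without the filter on low counts, and 0.0532 for Nfil3 without 7 libraries of other genotypes. Among the 2 helix-loop-helix repressors, Bhlhe40 rose from 60.4, 26.9 and 24.6 CPM to 119, 134 and 103 CPM (log2 fold change 1.67 ± 0.28, adjusted p = 0.00131), and CT2 replicate 1 was the highest of its day libraries. With the 6 WT libraries alone in the fit its adjusted p was 0.0875. Bhlhe41 read 0.384, 0.274 and 0.657 CPM by day and 1.14, 2.09 and 2.21 CPM by night, apart between the times but not called (log2 fold change 2.05 ± 0.97, adjusted p = 0.395).

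The outputs of the E-box arm were among the surest rises. Tef, which encodes a D-box activator, measured 24.3, 20.8 and 20.2 CPM by day and 150.3, 169 and 163 CPM by night (log2 fold change 2.88 ± 0.19, adjusted p = 1.03e-08). Dbp, a D-box activator with a deep rhythm in liver, measured 0.847, 0.36003 and 0.311 CPM by day and 27.7, 38.3 and 22.05 CPM by night (log2 fold change 5.85 ± 0.62, adjusted p = 9.38e-06). Hlf, the third of this family, measured 20.01, 15.02 and 21.1 CPM by day and 31.8, 45.9 and 37.4 CPM by night, the smallest rise of the family (log2 fold change 1.04 ± 0.19, adjusted p = 0.00338), and it was not called in limma on log2(TPM + 1), with an adjusted p of 0.0645. Usp2, a deubiquitinase, went from 2.19, 1.13 and 1.32 CPM to 55.2, 66.9 and 54.2 CPM (log2 fold change 5.24 ± 0.40, adjusted p = 1.37e-07). Wee1, a kinase that delays entry into mitosis, measured 2.18, 3.51 and 2.19 CPM by day and 19.7, 19.3 and 17.1 CPM by night (log2 fold change 2.83 ± 0.29, adjusted p = 5.64e-06). In each of these 5 genes the lowest night library was above the highest day library. Of the 14 genes of the E-box list 12 rose and 0 fell, against the 2.54% of all genes called in either direction, with a median log2 fold change of 2.86. All 12 were called in each of the 6 fits that left out a WT library. Of the 6 RORE genes, 3 fell (Npas2, Bmal1 and Nfil3) and 1, not named here, rose, beside 1.44% and 1.1% of all genes. That 1 rise was called in none of the 6 fits that left out a WT library. Of 14 other regulators, among them the casein kinases and Rora, only Noct was called. Noct, which encodes the phosphatase nocturnin, measured 2.53, 4.41 and 1.97 CPM by day and 24.4, 48.9 and 30.5 CPM by night (log2 fold change 3.54 ± 0.56, adjusted p = 0.000912).

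**Figure D1:**
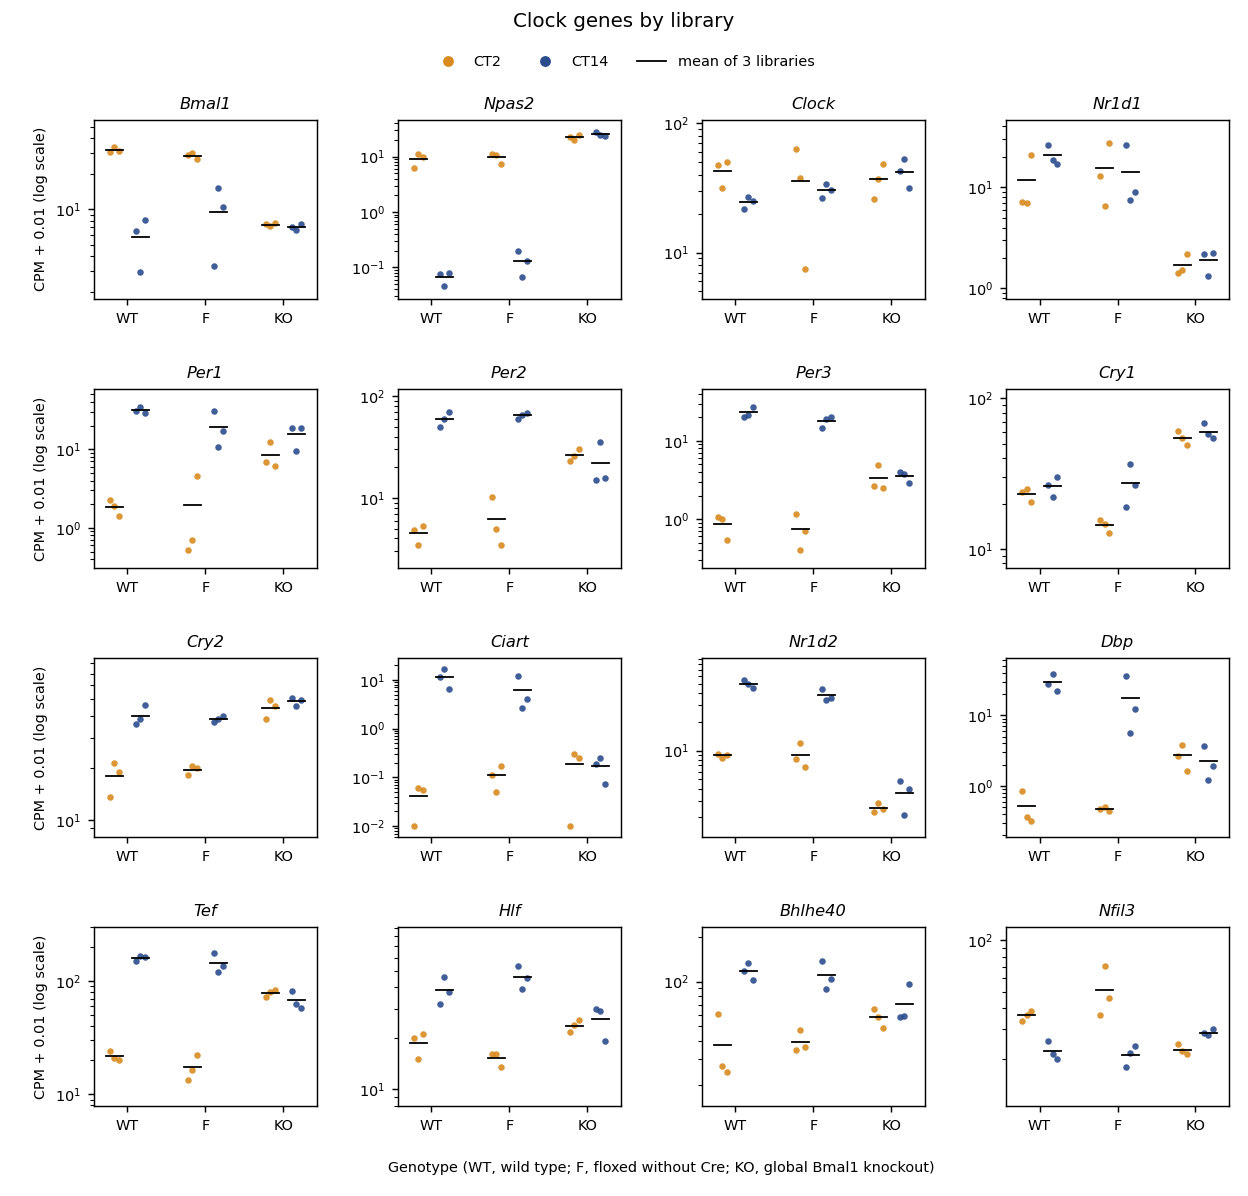
Level of 16 clock genes in each library, in CPM plus 0.01 on a log axis, at CT2 and CT14 in WT, F and KO, where a point is 1 library and a bar the mean of 3. In WT the Per genes, Ciart, Dbp and Tef sit high at CT14 and Npas2 and Bmal1 high at CT2, the F libraries follow the same order, and the KO libraries of the 2 times lie together.

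Set side by side per transcript length in TPM, which allows levels of different genes to be compared, the clock transcripts ranged widely. At night Tef and Bhlhe40 had means of 62.6 and 58.7 TPM. By day Bhlhe40 averaged 19.5 and Bmal1 18.3 TPM. Bmal1 averaged 3.17 TPM at night and was then below Per2, with 15.8 TPM. Npas2 averaged 3.62 TPM at CT2 and 0.0207 TPM at CT14, so it stood below Bmal1 at both times. Cry1 changed little in this unit, with 12.4 TPM at CT2 and 13.5 TPM at CT14.

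Outside the clock lists, among called genes with a symbol, a mean of at least 1 CPM and no overlap between the times, the largest rises included a lipid carrier, a vitamin B6 enzyme and 2 unnamed transcripts, besides Thrsp, Lpin1 and Cyp2a5, which are described with their pathways. Mfsd2a encodes a carrier of lysophospholipids that bear long unsaturated fatty acids. It measured 0.344, 1.11 and 3.94 CPM by day and 47.97, 72.3 and 46.3 CPM by night, a rise of 4.95 ± 0.97 on the log2 scale (adjusted p = 0.00688). Its day libraries differed more than 10-fold among themselves but all lay far under the night libraries. Pdxp, a phosphatase of the active form of vitamin B6, measured 0.296, 0.18002 and 0.2398 CPM by day and 1.36, 3.59 and 2.95 CPM by night (log2 fold change 3.46 ± 0.56, adjusted p = 0.000856). The unnamed transcripts Gm45819 and A930033H14Rik rose by 4.64 ± 0.67 and 3.78 ± 0.65 (adjusted p = 0.000315 and 0.00166), each from under 0.3 CPM in every day library. Hcn3, a channel subunit that opens on hyperpolarization, measured 2.26, 2.08 and 3.39 CPM by day and 38.3, 20.3 and 20.7 CPM by night (log2 fold change 3.36 ± 0.33, adjusted p = 3.31e-06). The call of Mfsd2a was lost without CT2 replicate 2 (adjusted p up to 0.053). The log2 fold change was 6.26 for Mfsd2a without CT2 replicate 3. In other fits the adjusted p was 0.0839 for Mfsd2a with the 6 WT libraries alone in the fit.

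By the same limits the largest falls, besides Npas2 and those with uneven day libraries given further on, were spread over secreted, transport and regulatory proteins. Spon2, a secreted matrix protein, measured 17.9, 27.6 and 17.1 CPM by day and 1.13, 1.68 and 1.58 CPM by night and fell with a small spread (log2 fold change -3.83 ± 0.42, adjusted p = 1.33e-05). Ndrg1, a stress-responsive protein of the cytoplasm, measured 34.8, 107 and 74.7 CPM by day and 11.2, 8.37 and 8.13 CPM by night (log2 fold change -2.97 ± 0.32, adjusted p = 1.08e-05). Asap2, an Arf GTPase-activating protein, measured 28.3, 25.2 and 17.5 CPM by day and 3.36, 3.98 and 4.78 CPM by night (log2 fold change -2.55 ± 0.23, adjusted p = 1.64e-06). In these 3 genes the groups were far apart. Slc34a2, a sodium-phosphate cotransporter, read 15.4, 7.098 and 7.54 CPM by day and 0.747, 0.731 and 1.58 CPM by night (log2 fold change -3.29 ± 0.63, adjusted p = 0.00504). Rfx4, a transcription factor of the RFX family, read 2.73, 5.04 and 1.44 CPM by day and 0.369, 0.472 and 0.254 CPM by night (log2 fold change -3.07 ± 0.46, adjusted p = 0.000431). Nckap5, whose product binds microtubules, read 3.64, 4.85 and 1.04 CPM by day and 0.378, 0.321 and 0.166 CPM by night (log2 fold change -3.46 ± 0.53, adjusted p = 0.000587). Day libraries of Rfx4 and Nckap5 differed more than 3-fold among themselves, and the night libraries were all lower. The noncoding transcripts Gm36041 and Gm32540 fell by 3.11 and 2.96 on the log2 scale (adjusted p = 0.000175 and 0.00617).

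Some of the falls rest on uneven day libraries. Dhrs9, a retinol and steroid dehydrogenase, read 4.51, 1.61 and 0.266 CPM by day and 0.0493, 0.0713 and 0 CPM by night (log2 fold change -5.69 ± 1.26, adjusted p = 0.0169). The noncoding Gm15611 read 3.76, 1.25 and 9.104 CPM by day and 0.238, 0 and 0.0437 CPM by night (log2 fold change -5.61 ± 1.21, adjusted p = 0.0136). Both had night libraries at or close to 0. Loxl4, a lysyl oxidase that cross-links collagen, measured 7.45, 20.3 and 1.32 CPM by day and 0.739, 0.517 and 0.6297 CPM by night (log2 fold change -3.94 ± 0.64, adjusted p = 0.00129). Pitx3, a homeobox transcription factor, measured 5.66, 5.03 and 0.311 CPM by day and 0.2299, 0.187 and 0.105 CPM by night (log2 fold change -4.39 ± 1.03, adjusted p = 0.0257). In Loxl4 and Pitx3 the library CT2 replicate 3 lay close to the night level and carried little of the difference. The call of Dhrs9 held only without CT2 replicate 2 or CT2 replicate 3 (adjusted p up to 0.0817). The call of Gm15611 was lost without CT14 replicate 2 or without CT14 replicate 3 (adjusted p up to 0.0802). The call of Pitx3 held only without CT2 replicate 3 (adjusted p up to 0.129). The log2 fold change was -4.51 for Dhrs9 without CT2 replicate 1, and -6.34 for Dhrs9 and -3.63 for Gm32540 without CT14 replicate 2, and -4.70 for Gm15611 without CT2 replicate 3, and -7.67 for Gm15611 without CT14 replicate 1, and -2.80 for Loxl4 without CT2 replicate 2. Outside those fits the adjusted p came to 0.102 for Dhrs9, 0.115 for Gm15611, 0.112 for Pitx3, 0.122 for Loxl4 and 0.0507 for Gm32540 with the 6 WT libraries alone in the fit, and 0.055 for Pitx3 without the filter on low counts, and 0.182 for Pitx3 in limma on log2(TPM + 1).

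Genes of fat synthesis changed in both directions. Thrsp, a hepatic protein that promotes lipogenesis, measured 94.3, 107 and 41.1 CPM by day and 2179, 2119.5 and 1733 CPM by night and rose (log2 fold change 4.64 ± 0.47, adjusted p = 5.64e-06). Lpin1 and Lpin2 encode phosphatidate phosphatases, which make diacylglycerol for triglyceride. Lpin1 measured 22.6, 37.1 and 18.1 CPM by day and 459, 595 and 175 CPM by night (log2 fold change 3.98 ± 0.48, adjusted p = 5.2e-05). Lpin2 measured 71.95, 125 and 68.9 CPM by day and 322, 218 and 219 CPM by night (log2 fold change 1.52 ± 0.31, adjusted p = 0.00699). For Lpin1 the night libraries differed more than 3-fold, with CT14 replicate 3 the lowest, and still cleared the day range. Of the elongases, Elovl3 and Elovl5 went down. Elovl3, which makes very long saturated chains, measured 419, 384 and 42.5 CPM by day and 32.8, 24.4 and 17.03 CPM by night (log2 fold change -3.51 ± 0.72, adjusted p = 0.00951). CT2 replicate 3 lay close above the night libraries for Elovl3, far from the other day libraries. Elovl5, which lengthens polyunsaturated chains, measured 447, 290.4 and 372 CPM by day and 186, 139 and 148 CPM by night (log2 fold change -1.23 ± 0.27, adjusted p = 0.0117). Of the 25 tested, 3 rose and 2 fell, beside 1.1% and 1.44% of all genes, with a median log2 fold change of 0.40 beside 0 over all genes, and all 3 libraries of the night were above those of the day in 10 of the 25 (10.5% of all genes tested). DESeq2 called 6 rises and 2 falls of this list, the fit with the 6 WT libraries alone 6 and 1, and the fit without 7 libraries of other genotypes 7 and 1. Without CT2 replicate 1 there were 2 and 1, and without CT14 replicate 2 or CT14 replicate 3 there were 3 and 0.

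The central enzymes of the pathway did not pass. Fasn, fatty acid synthase, read 386, 404 and 324 CPM by day and 1031, 559.6 and 619 CPM by night (log2 fold change 0.99, adjusted p = 0.179), and Acaca, which makes malonyl-CoA, 65.8, 80.6 and 78.1 CPM by day and 129, 107 and 118 CPM by night (log2 fold change 0.66, adjusted p = 0.0858). Their regulator Srebf1 read 185, 244 and 226 CPM by day and 413, 354 and 344 CPM by night (log2 fold change 0.76, adjusted p = 0.197), and Elovl6, the elongase that acts next on their product, 35.1, 38.1 and 47.4 CPM by day and 267, 96.7 and 125 CPM by night (log2 fold change 2.02, adjusted p = 0.0563). In each of these 4 genes the night libraries nonetheless lay above the day libraries. Plin2, which coats lipid droplets, fell from 524, 435 and 462 CPM to 156, 176 and 205 CPM (log2 fold change -1.40 ± 0.18, adjusted p = 0.000101), the 1 call among 16 droplet and lipolysis genes. In either direction 2.54% of all genes tested were called. Of 33 genes of fatty acid oxidation and ketogenesis only Pdk4 was called, a kinase that shuts pyruvate dehydrogenase during fasting. Pdk4 measured 8.04, 33.9 and 15.4 CPM by day and 3.23, 2.48 and 2.87 CPM by night and fell (log2 fold change -2.74 ± 0.50, adjusted p = 0.00322). Ppara, the fasting receptor of this set, read 74.4, 40.97 and 74.6 CPM by day and 100.5, 116 and 111 CPM by night (log2 fold change 0.79, adjusted p = 0.177). Lipg, endothelial lipase, was the 1 call among 22 genes of lipoproteins, with 3.99, 3.68 and 5.77 CPM by day and 14.01, 33.04 and 12.2 CPM by night (log2 fold change 2.14 ± 0.39, adjusted p = 0.00272). The call of Lpin2 was lost without CT2 replicate 1 (adjusted p up to 0.0531). The call of Elovl3 was lost without CT14 replicate 2 or without CT14 replicate 3 (adjusted p up to 0.0659). The call of Elovl5 was lost without CT2 replicate 1 or without CT14 replicate 2 or without CT14 replicate 3 (adjusted p up to 0.0842). The log2 fold change was -2.03 for Pdk4 without CT2 replicate 2, and 1.55 for Lipg without CT14 replicate 2. Other settings gave an adjusted p of 0.15 for Elovl3, 0.0588 for Pdk4 and 0.0588 for Lipg with the 6 WT libraries alone in the fit, and 0.0574 for Elovl5 without 7 libraries of other genotypes.

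Among genes of glucose handling, the rises included genes of glycogen synthesis and of glycolysis. Gys2, the glycogen synthase of liver, measured 72.6, 77.3 and 83.7 CPM by day and 259, 331 and 291 CPM by night (log2 fold change 1.92 ± 0.18, adjusted p = 1.64e-06). Pklr, liver pyruvate kinase, measured 128, 104 and 123 CPM by day and 585, 338 and 333 CPM by night (log2 fold change 1.82 ± 0.22, adjusted p = 3.28e-05). Pfkfb1, the enzyme that sets fructose 2,6-bisphosphate, measured 28.2, 24.5 and 20.6 CPM by day and 66.1, 55.7 and 78.9 CPM by night (log2 fold change 1.45 ± 0.20, adjusted p = 0.000234). In each of these 3 the night libraries were well above the day libraries. Slc37a4, which carries glucose 6-phosphate into the endoplasmic reticulum for the last step of glucose release, measured 81.1, 76.6 and 108 CPM by day and 245, 287 and 292 CPM by night (log2 fold change 1.63 ± 0.19, adjusted p = 2.79e-05). Slc2a2, the glucose transporter of the hepatocyte membrane, measured 151, 131 and 225 CPM by day and 300.4, 300.3 and 243 CPM by night (log2 fold change 0.73 ± 0.19, adjusted p = 0.0414), with CT2 replicate 3 close to the lowest night library. Ppp1r3c, a subunit that targets protein phosphatase to glycogen, went down, with 172, 146 and 159.5 CPM by day and 20.3, 39.5 and 45.9 CPM by night (log2 fold change -2.18 ± 0.36, adjusted p = 0.00117). Of 25 genes tested 5 rose and 1 fell, beside 1.1% and 1.44% of all genes, and 14 lay wholly higher at night, beside 10.5%. DESeq2 called 8 rises and 1 fall. Pck1, the entry enzyme of gluconeogenesis, read 447, 1001 and 374 CPM by day and 2365, 2633 and 1803 CPM by night, wholly higher at night but not called (log2 fold change 1.90, adjusted p = 0.156). The call of Slc2a2 held only without CT2 replicate 3 or CT14 replicate 3 (adjusted p up to 0.245). By setting, the adjusted p became 0.0636 for Slc2a2 without the filter on low counts, and 0.147 for Slc2a2 with the 6 WT libraries alone in the fit, and 0.0939 for Slc2a2 in limma on log2(TPM + 1).

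Of 19 genes of the insulin and fasting response 3 rose and 0 fell, beside 1.1% and 1.44% of all genes, and DESeq2 called 4 and 1. Foxo3, a transcription factor that insulin keeps out of the nucleus, measured 29.2, 27.1 and 28.1 CPM by day and 72.4, 79.8 and 74.8 CPM by night (log2 fold change 1.43 ± 0.14, adjusted p = 2.81e-06). Its replicates were close and the groups far apart. Foxo1, its relative that drives gluconeogenic genes, measured 23.8, 19.8 and 18.2 CPM by day and 33.4, 43.7 and 30.2 CPM by night (log2 fold change 0.79 ± 0.16, adjusted p = 0.00688). Ppargc1b, a coactivator of mitochondrial and lipogenic genes, measured 1.57, 1.74 and 1.37 CPM by day and 3.43, 3.503 and 4.43 CPM by night (log2 fold change 1.28 ± 0.28, adjusted p = 0.0128). Irs2, the docking protein of the insulin receptor, read 13.01, 37.4 and 22.6 CPM by day and 10.7, 9.73 and 12.7 CPM by night and was not called (log2 fold change -1.14, adjusted p = 0.127). The call of Foxo1 was lost without CT14 replicate 2 (adjusted p up to 0.0766). The call of Ppargc1b was lost without CT2 replicate 1 or without CT2 replicate 3 or without CT14 replicate 3 (adjusted p up to 0.0679). The adjusted p was 0.0659 for Foxo1 with the 6 WT libraries alone in the fit.

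Transcripts of cholesterol and bile acid genes were lower at night where they changed. Hmgcs1, which makes the precursor HMG-CoA in the cytosol, measured 409, 888 and 319 CPM by day and 154, 108 and 92.1 CPM by night (log2 fold change -2.19 ± 0.42, adjusted p = 0.00441). Insig2, which holds the SREBP proteins in the endoplasmic reticulum, measured 415, 603 and 342 CPM by day and 92.1, 88.4 and 118 CPM by night (log2 fold change -2.19 ± 0.35, adjusted p = 0.000843). CT2 replicate 2 was the highest day library for both. These were the 2 falls among 27 genes tested, with 0 rises, beside 1.44% and 1.1% of all genes. The list's median was -0.33, and -0.103 without CT2 replicate 2. With the 6 WT libraries alone in the fit 1 fall was called. Hsd3b7, an early enzyme of bile acid synthesis, measured 567, 808 and 593 CPM by day and 199, 177 and 220.1 CPM by night (log2 fold change -1.72 ± 0.19, adjusted p = 1.52e-05). Abcb11, the export pump for bile salts, measured 533, 459 and 421 CPM by day and 187, 166 and 206 CPM by night (log2 fold change -1.34 ± 0.20, adjusted p = 0.000396). Fgfr4, the receptor through which the gut hormone FGF15 restrains bile acid synthesis, measured 62.2, 45.5 and 46.8 CPM by day and 33.3, 25.8 and 35.4 CPM by night (log2 fold change -0.71 ± 0.18, adjusted p = 0.031). Those 3 fell among 26 genes tested, beside 1.44% of all genes, and DESeq2 called 1 rise and 4 falls. The fit with the 6 WT libraries alone called 2 falls in this list. Cyp7a1, the rate-limiting enzyme of bile acid synthesis, read 60.8, 44.9 and 109 CPM by day and 111, 158 and 139.8 CPM by night and did not pass (log2 fold change 0.93, adjusted p = 0.605). The call of Fgfr4 was lost without CT2 replicate 1 or without CT14 replicate 1 or without CT14 replicate 2 (adjusted p up to 0.206). In other fits the adjusted p was 0.064 for Hmgcs1 and 0.0818 for Fgfr4 with the 6 WT libraries alone in the fit, and 0.0598 for Fgfr4 without the filter on low counts.

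Of 40 genes of heme and xenobiotic metabolism 4 rose and 0 fell, beside 1.1% and 1.44% of all genes, and 2 rose with the 6 WT libraries alone in the fit. Alas1, the first and rate-limiting enzyme of heme synthesis, measured 227, 69.01 and 63.4 CPM by day and 846, 1360.3 and 902 CPM by night (log2 fold change 3.11 ± 0.58, adjusted p = 0.00381). Por, the reductase that passes electrons to every microsomal P450, measured 158, 189 and 129.7 CPM by day and 612, 676 and 799 CPM by night (log2 fold change 2.13 ± 0.34, adjusted p = 0.000875). Nr1i2, the xenobiotic receptor PXR, measured 64.4, 57.2 and 51.8 CPM by day and 105, 106 and 104 CPM by night (log2 fold change 0.86 ± 0.15, adjusted p = 0.00199). The Por and Nr1i2 groups were tight and apart, and CT2 replicate 1 was the highest day library for Alas1. Cyp2a5, the enzyme that hydroxylates coumarin, measured 23.3, 223 and 133 CPM by day and 2068, 1188 and 2976 CPM by night (log2 fold change 4.04 ± 0.66, adjusted p = 0.00137). Its day libraries differed almost 10-fold, and Cyp2a5 has the near-identical copy Cyp2a4, with which its reads may have been exchanged. The log2 fold change was 3.97 for Alas1 without CT2 replicate 1, and 4.74 for Cyp2a5 without CT2 replicate 2. Outside those fits the adjusted p came to 0.0679 for Alas1 and 0.116 for Cyp2a5 with the 6 WT libraries alone in the fit. In the redox list Gclc, the limiting enzyme of glutathione synthesis, fell from 324, 515 and 331 CPM to 163, 117 and 139.7 CPM (log2 fold change -1.48 ± 0.26, adjusted p = 0.00214), the 1 call of 22.

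In the list of NAD metabolism 2 of 14 transcripts tested rose and 0 fell, beside 1.1% and 1.44% of all genes. With the 6 WT libraries alone in the fit 1 rose. The fit without 7 libraries of other genotypes called 2 rises and 1 fall. Nampt, the rate-limiting enzyme of NAD salvage, measured 30.2, 41.97 and 24.95 CPM by day and 131, 148 and 90.995 CPM by night (log2 fold change 1.93 ± 0.37, adjusted p = 0.00412). Nmrk1, which phosphorylates nicotinamide riboside, measured 15.2, 6.98 and 8.61 CPM by day and 24.3, 20.8 and 27.4 CPM by night (log2 fold change 1.23 ± 0.29, adjusted p = 0.0235). In amino acid metabolism 4 of 30 genes rose and 2 fell, beside 1.1% and 1.44% of all genes. DESeq2, and also the fit without 7 libraries of other genotypes, called 8 rises and 2 falls, while 1 and 1 were called without CT2 replicate 1 and 2 and 1 without each of the CT14 libraries in turn. In the fit of all libraries Tat, Cps1 and Asl were among the rises. Tat, which starts tyrosine breakdown, measured 382, 763 and 837 CPM by day and 1979.7, 2329 and 1519 CPM by night (log2 fold change 1.56 ± 0.28, adjusted p = 0.00237). Cps1 and Asl are enzymes of the urea cycle. Cps1 measured 2139, 2736 and 2639 CPM by day and 4121, 3839 and 4101 CPM by night (log2 fold change 0.68 ± 0.16, adjusted p = 0.0188), and Asl 355, 389 and 392 CPM by day and 719.7, 788 and 869.9 CPM by night (log2 fold change 1.07 ± 0.23, adjusted p = 0.0109). The falls were Cbs, which condenses homocysteine with serine, and Hal, which opens histidine breakdown. Cbs measured 657, 605 and 522 CPM by day and 239, 203 and 219 CPM by night (log2 fold change -1.43 ± 0.21, adjusted p = 0.000431) and Hal 417, 376 and 436 CPM by day and 209.6, 209.7 and 187 CPM by night (log2 fold change -1.02 ± 0.27, adjusted p = 0.042). Tat and Cps1 are also among the 9 hepatocyte markers, of which 3 were called and whose sum ranged over 86556 to 122352 CPM by day and 102840.4 to 118453 CPM at night. The call of Nmrk1 held only without CT2 replicate 1 or CT14 replicate 2 (adjusted p up to 0.149). The call of Cps1 held only without CT2 replicate 2 or CT2 replicate 3 (adjusted p up to 0.119). The call of Asl was lost without CT2 replicate 1 or without CT14 replicate 3 (adjusted p up to 0.0608). The call of Hal was lost whichever of the 6 WT libraries was left out (adjusted p up to 0.151). Other settings gave an adjusted p of 0.0932 for Nmrk1, 0.057 for Tat and 0.06 for Cps1 with the 6 WT libraries alone in the fit, and 0.0606 for Cps1 in limma on log2(TPM + 1), and 0.0502 for Hal with DESeq2 size factors, and 0.0546 for Hal without the filter on low counts.

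**Figure D2:**
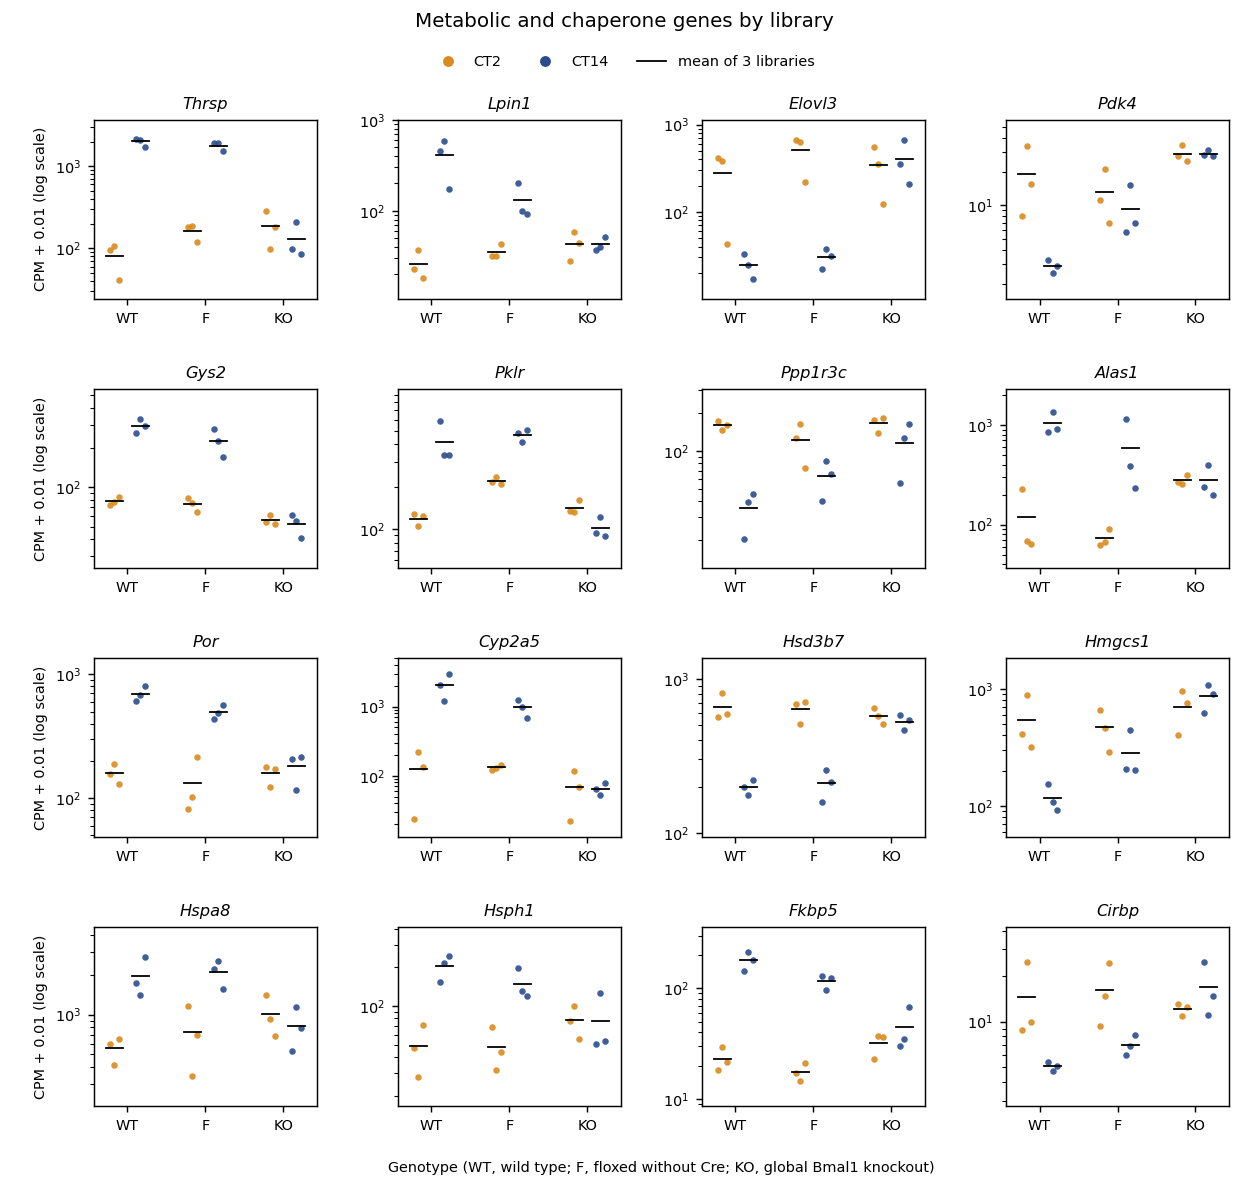
Level of 16 genes of lipid, glucose, heme, bile acid and chaperone groups in each library, in CPM plus 0.01 on a log axis, at CT2 and CT14 in WT, F and KO, where a point is 1 library and a bar the mean of 3. In WT, Thrsp, Gys2 and Por are higher and Hsd3b7 and Ppp1r3c lower in every CT14 library, and the low point for Elovl3 at CT2 is replicate 3.

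Chaperone genes rose at night where they passed the test. Heat shock proteins and cytosolic chaperones help to fold proteins, and the heat-inducible ones among them rise with heat through the factor HSF1. The list also holds constitutive members and Fkbp5, which is in the glucocorticoid-responsive list too. Among 23 genes tested 8 rose and 0 fell, beside 1.1% and 1.44% of all genes. The median log2 fold change of the list was 0.96. In 18 of the 23 the night libraries lay wholly above the day libraries, against 10.5% of all genes tested. Hspa8, the constitutive HSC70, measured 599, 417 and 653 CPM by day and 1742, 1405 and 2711 CPM by night (log2 fold change 1.81 ± 0.41, adjusted p = 0.016). Hsph1, a nucleotide exchange factor of HSP70, measured 47.3, 28.1 and 71.6 CPM by day and 153, 216 and 244 CPM by night (log2 fold change 2.06 ± 0.38, adjusted p = 0.00346). In the RefSeq windows of Hsph1 the heat shock element lies after the annotated start, within the transcript. Fkbp5, a co-chaperone of the glucocorticoid receptor, measured 18.3, 29.4 and 21.8 CPM by day and 144, 211 and 182 CPM by night (log2 fold change 2.95 ± 0.29, adjusted p = 2.81e-06). Fkbp5 was the clearest of the group, with no library near the other time. The heat-inducible Hspa1b measured 22.6, 10.6 and 37.4 CPM by day and 171, 205 and 109 CPM by night (log2 fold change 2.78 ± 0.71, adjusted p = 0.0414), and its near-identical copy Hspa1a read 6.04, 5.598 and 32.97 CPM by day and 143, 94.9 and 46.96 CPM by night (log2 fold change 2.67, adjusted p = 0.0659). Reads of Hspa1a and Hspa1b may have been exchanged in counting. Hsp90ab1, a constitutive HSP90, measured 760.5, 819 and 763 CPM by day and 1037, 1150.4 and 1793 CPM by night (log2 fold change 0.76 ± 0.19, adjusted p = 0.0276). Dnajb1, Dnaja1 and Stip1, helpers of HSP70 and HSP90, rose by 1.35 ± 0.31, 1.35 ± 0.36 and 0.98 ± 0.23 (adjusted p = 0.02, 0.0456 and 0.0208).

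The chaperone calls were sensitive to single libraries. Leaving out 1 WT library left 2 to 5 calls in the list: 3 without CT2 replicate 1, 2 without CT2 replicate 2, 4 without CT2 replicate 3, 5 without CT14 replicate 1, 4 without CT14 replicate 2 and 3 without CT14 replicate 3. Without the filter on low counts 5 were called, and without 7 libraries of other genotypes 13. The median log2 fold change stayed between 0.88 and 1.07 in those fits. In F, which shares no library with WT, 6 of the 23 were called higher and 0 lower, beside 1.33% of all genes each. The list's median in F was 0.69. The WT call of Hspa8 was lost without CT2 replicate 1 or without CT2 replicate 2 or without CT14 replicate 3 (adjusted p up to 0.104). The calls of Hspa1b and Dnaja1 were lost whichever of the 6 WT libraries was left out (adjusted p up to 0.2 and 0.196, respectively). The call of Hsp90ab1 held only without CT14 replicate 1 or CT14 replicate 2 (adjusted p up to 0.222). The call of Dnajb1 held only without CT2 replicate 1 or CT14 replicate 3 (adjusted p up to 0.122). The call of Stip1 held only without CT14 replicate 1 (adjusted p up to 0.129). By setting, the adjusted p became 0.0905 for Hspa1b, 0.0533 for Hsp90ab1 and 0.0557 for Dnaja1 without the filter on low counts, and 0.0616 for Hspa1b, 0.13 for Hsp90ab1 and 0.108 for Dnajb1 with the 6 WT libraries alone in the fit, and 0.0689 for Hsp90ab1 in limma on log2(TPM + 1), and 0.052 for Dnajb1 without 7 libraries of other genotypes. CT14 replicate 3 was the highest night library for Hspa8, Hsp90ab1 and Stip1 and the lowest for Hspa1a and Hspa1b.

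Of 5 RNA-binding protein genes in the list for the response to cold, 3 fell, Cirbp and Srsf5 among them, beside 1.44% of all genes. With the 6 WT libraries alone in the fit 0 were called. In F 0 of the 5 were called lower and 1 was called higher. The list's median log2 fold change was -0.61 in F beside -1.10 in WT. In WT Cirbp, the cold-inducible RNA-binding protein, measured 8.81, 24.6 and 9.96 CPM by day and 5.39, 4.68 and 5.099 CPM by night (log2 fold change -1.52 ± 0.37, adjusted p = 0.0274). Srsf5, a splicing factor, measured 63.8, 145 and 62.5 CPM by day and 35.8, 39.001 and 35.9 CPM by night (log2 fold change -1.29 ± 0.28, adjusted p = 0.0131). CT2 replicate 2 was the highest library for both. Rbm3, the other classical cold-inducible gene, read 18.97, 20.2 and 18.2 CPM by day and 46.5, 34.1 and 25.9 CPM by night, higher at night and not called (log2 fold change 0.89, adjusted p = 0.184). Hnrnpdl, of the same list, read 18.9, 28.05 and 21.1 CPM by day and 18.6, 15.8 and 16.3 CPM by night (log2 fold change -0.42, adjusted p = 0.698). The calls of Cirbp and Srsf5 held only without CT2 replicate 1 or CT2 replicate 3 (adjusted p up to 0.286 and 0.147, respectively). The log2 fold change was -0.89 for Cirbp without CT2 replicate 2. The adjusted p was 0.109 for Cirbp and 0.119 for Srsf5 with the 6 WT libraries alone in the fit. Of 24 genes of the endoplasmic reticulum stress response only Atf5 was called, a transcription factor of stressed cells, which fell from 313, 302 and 294 CPM to 108, 77.4 and 83.9 CPM (log2 fold change -1.75 ± 0.27, adjusted p = 0.000528).

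Of 18 glucocorticoid-responsive genes 4 rose and 1 fell, beside 1.1% and 1.44% of all genes, and DESeq2 called 7 and 1. The rises were Fkbp5, Per1 and Tat, given above, and Tsc22d3, the leucine zipper protein GILZ. Tsc22d3 measured 41.03, 40.99 and 46.2 CPM by day and 94.2, 115 and 124 CPM by night (log2 fold change 1.38 ± 0.27, adjusted p = 0.00551). Cdkn1a, the cell cycle inhibitor p21, was the 1 fall, with 13.9, 10.7 and 11.5 CPM by day and 3.96, 5.35 and 2.799 CPM by night (log2 fold change -1.58 ± 0.36, adjusted p = 0.02). Klf10 was the 1 call of 20 immediate early genes, with 6.78, 3.72 and 4.903 CPM by day and 13.6, 12.9 and 9.64 CPM by night (log2 fold change 1.23 ± 0.31, adjusted p = 0.0338). In the growth hormone axis Stat5b, which carries the hormone's signal to the nucleus, was the 1 call of 14, with 90.5, 83.2 and 82.9 CPM by day and 47.9, 45.5 and 49.9 CPM by night (log2 fold change -0.84 ± 0.18, adjusted p = 0.0115). Rrm2, a subunit of ribonucleotide reductase, rose in the cell cycle list from 1.58, 1.5001 and 1.36 CPM to 6.39, 5.75 and 2.41 CPM (log2 fold change 1.71 ± 0.36, adjusted p = 0.0103). Hjv, the hepcidin regulator hemojuvelin, fell as the 1 call of 19 iron genes from 68.4, 81.3 and 62.5 CPM to 37.4, 35.8 and 50.5 CPM (log2 fold change -0.78 ± 0.17, adjusted p = 0.0136). The call of Cdkn1a was lost without CT2 replicate 1 or without CT14 replicate 1 or without CT14 replicate 3 (adjusted p up to 0.111). The call of Klf10 held only without CT2 replicate 1 or CT14 replicate 3 (adjusted p up to 0.195). The call of Stat5b was lost without CT2 replicate 1 or without CT14 replicate 2 (adjusted p up to 0.0734). The call of Rrm2 was lost without CT2 replicate 3 or without CT14 replicate 1 or without CT14 replicate 2 (adjusted p up to 0.062). The call of Hjv was lost without CT2 replicate 2 or without CT14 replicate 1 or without CT14 replicate 2 (adjusted p up to 0.109). In other fits the adjusted p was 0.06 for Klf10, 0.0656 for Rrm2 and 0.0579 for Hjv with the 6 WT libraries alone in the fit.

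The fibrinogen chains were lower at night. Fga measured 8454, 4068 and 4561 CPM by day and 2193, 2129.8 and 2328 CPM by night (log2 fold change -1.36 ± 0.28, adjusted p = 0.00838), Fgb 9770.01, 5273 and 5069.8 CPM by day and 2960.4, 2691 and 2827 CPM by night (log2 fold change -1.25 ± 0.28, adjusted p = 0.0152) and Fgg 7577, 4139 and 4168 CPM by day and 2314, 2161 and 2304 CPM by night (log2 fold change -1.23 ± 0.30, adjusted p = 0.0293). Their day libraries lay above the night libraries in every case, with CT2 replicate 1 far above the other day libraries. They were the 3 falls of 24 acute phase genes, beside 1.44% of all genes. In F 3 of the 24 were called lower and 0 higher, beside 1.33% of all genes each. The log2 fold changes in F were -1.26 for Fga, -1.30 for Fgb and -1.20 for Fgg. In WT the summed level of the 24 was 77612 CPM in CT2 replicate 1, 38532 and 37887 CPM in the other day libraries and 29520.04 to 34388 CPM at night. In the fit without CT2 replicate 1 none of the 24 was called lower and 1 was called higher, Saa4, a serum amyloid A protein named here after its values were seen (log2 fold change 1.52, adjusted p = 0.0292, beside 0.89 and 0.293 with all libraries). Without CT14 replicate 2 none was called. The call of Fga was lost without CT2 replicate 1 or without CT14 replicate 2 (adjusted p up to 0.0806). The calls of Fgb and Fgg held only without CT2 replicate 2 or CT2 replicate 3 (adjusted p up to 0.134 and 0.21, respectively). Outside those fits the adjusted p came to 0.0549 for Fga, 0.0585 for Fgb and 0.0507 for Fgg with the 6 WT libraries alone in the fit. Serpina1e, a male-biased protease inhibitor with near-identical copies, read 14619, 6108 and 712 CPM by day and 669, 754 and 757 CPM by night, with CT2 replicate 3 inside the night range (log2 fold change -3.30 ± 0.85, adjusted p = 0.0456). The call of Serpina1e held only without CT2 replicate 3 (adjusted p up to 0.247). Besides Serpina1e and Elovl3, none of the 23 male-biased genes was called.

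Several gene groups had 0 calls in edgeR's test with all libraries in the fit. Of 25 interferon-stimulated genes, 25 genes of ribosome biogenesis and 30 cytosolic ribosomal protein genes none was called, beside 2.54% of all genes. At that share, 0 calls in lists of this size do not set them apart from other genes. Their median log2 fold changes were -0.03, 0.16 and 0.12. At an unadjusted p under 0.05 there were 0, 2 and 0 of them, beside 2534 of all 20514 genes tested. DESeq2 and limma on log2(TPM + 1) also called 0 in each. With the 6 WT libraries alone in the fit 1 gene of ribosome biogenesis was called higher. Without 7 libraries of other genotypes, the interferon-stimulated and ribosome biogenesis lists were no longer free of calls. Of the 30 ribosomal protein genes, 10 lay wholly higher at night, beside 10.5% of all genes tested.

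**Figure D3:**
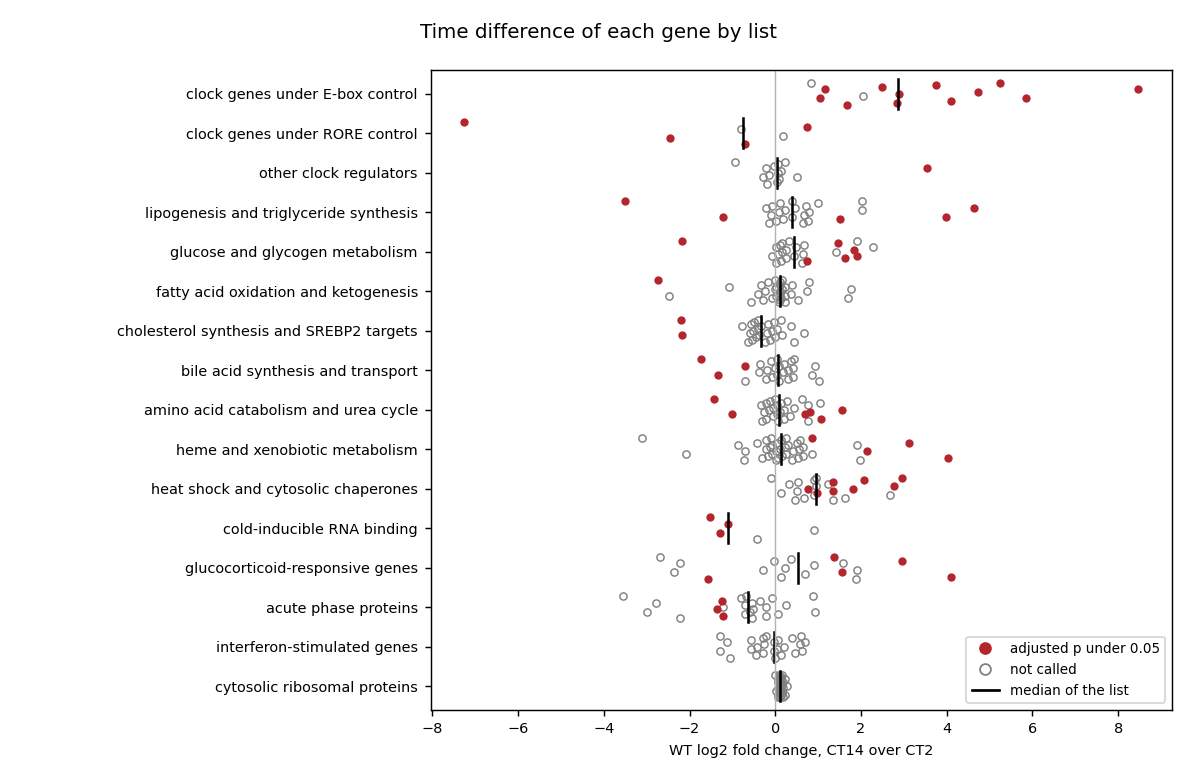
Log2 fold change CT14 over CT2 in WT for each tested member of selected gene lists, 1 point per gene, red where called, with a bar at the list's median. The E-box clock genes lie furthest to the positive side, with a median of 2.86, and the chaperones follow with 0.96. On the negative side are the cold-inducible list (-1.10), the RORE clock genes (-0.75) and the acute phase genes (-0.64). The other medians drawn run from -0.33 for cholesterol genes to 0.53 for glucocorticoid-responsive genes.

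The time difference of the floxed line without Cre followed that of WT. In F, which shares no library with WT, 545 of 20514 genes were called (2.66%), 273 higher at CT14 and 272 lower (1.33% each). Without F replicate 3 at both times and the 5 other libraries that stood apart, 442 were called. Of the 521 genes called in WT, 222 of the 226 rises and 288 of the 295 falls had the same sign in F, which is 97.9% against 61.5% over all genes tested. Called in the same direction in both lines were 254 genes, 48.8% of the WT calls and 46.6% of the F calls. The WT rises had a median of 0.92 in F and the WT falls of -0.85, and Pearson's r across the 521 genes was 0.861 (Spearman's rho 0.909), where genes are not independent replicates. These genes were chosen by their WT values, and over all 20514 genes tested Pearson's r between the lines was 0.198. Tef (3.07 ± 0.19 in F), Per3 (4.58 ± 0.37) and Npas2 (-6.31 ± 0.37) stood beside 2.88 ± 0.19, 4.74 ± 0.37 and -7.26 ± 0.40 in WT, and the difference passed for none of the 3 (adjusted p = 1 for each, with an unadjusted p of 0.0738 for Npas2). Elovl3, uneven in WT, fell in F as well (log2 fold change -4.06 ± 0.74, adjusted p = 0.00491).

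The difference of the time effect between F and WT was tested itself, as an interaction. By edgeR's quasi-likelihood test 0 genes passed (0.0% of 20514), with 993 at an unadjusted p under 0.05, while DESeq2 called 28 and limma on log2(TPM + 1) 0. Some WT calls had a smaller or an opposite value in F without passing that test. Nckap5 was -3.46 ± 0.53 in WT and 0.86 ± 0.51 in F (difference 4.32 ± 0.73, adjusted p = 0.165). Tat, 1.56 ± 0.28 in WT, was 0.30 ± 0.27 in F (difference -1.25 ± 0.39, adjusted p = 0.898). Pdk4 was -0.50 ± 0.47 in F (difference 2.24 ± 0.67, adjusted p = 0.85). These lines are not shown to differ at any of the 3 genes.

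In mice without BMAL1 the same genes showed no difference between the times that passed. The Bmal1 transcript itself first checks the labels: in KO it was 7.15 to 7.57 CPM at CT2 and 6.66 to 7.53 CPM at CT14, below every WT library at CT2 and within the WT range at CT14. Counts per gene do not show which exons a deletion removed. In KO 0 of 20514 genes were called between CT14 and CT2 by edgeR's quasi-likelihood test (0.0%), with 753 at an unadjusted p under 0.05, DESeq2 called 38 and limma on log2(TPM + 1) 0. Without the 4 KO libraries that stood apart in earlier results, which leaves 1 KO library at each time, and 3 others, 6 were called. Of the 521 WT calls 48.2% had the same sign in KO, beside 47.5% of all genes tested. The medians in KO were 0.02 for the WT rises and 0.06 for the WT falls, and Pearson's r across the 521 genes was 0.0328 (Spearman's rho -0.0537).

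The interaction of time with genotype, KO against WT, passed for 164 genes (0.799%), 103 with a higher time effect in KO (0.502%) and 61 with a lower one (0.297%). Of these, 155 were WT calls: 96 of the WT falls were less negative in KO and 59 of the WT rises less positive. Without the 7 libraries that stood apart 66 passed, 25 higher and 41 lower, so the balance turned, with 1 KO library at each time assumed to vary like the other groups. Npas2 had the smallest p: in KO it ranged over 19.6 to 24.3 CPM at CT2 and 23.6 to 27.3 CPM at CT14, so the day-high WT pattern was missing (difference 7.44 ± 0.48, adjusted p = 1.58e-08). Tef ranged over 72.9 to 82.96 CPM at CT2 and 58.3 to 81.9 CPM at CT14 in KO, between its WT day and night levels (difference -3.11 ± 0.25, adjusted p = 6.63e-07). Per2 ranged over 22.9 to 30.2 CPM and 14.8 to 35.2 CPM (difference -4.01 ± 0.49, adjusted p = 0.000168). Both were thus neither at the WT day level nor at the WT night level. Dbp, with 1.62 to 3.81 CPM at CT2 and 1.21 to 3.65 CPM at CT14 in KO, showed no such rise (difference -6.12 ± 0.77, adjusted p = 0.00024).

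Metabolic genes were among those whose time effect differed between KO and WT. Thrsp ranged over 98.6 to 284 CPM at CT2 and 86.4 to 210.01 CPM at CT14 in KO (difference -5.15 ± 0.61, adjusted p = 0.000141). Gys2 ranged over 51.9 to 61.6 CPM and 40.95 to 61.4 CPM (difference -2.01 ± 0.24, adjusted p = 0.000145). With the difference given for each gene, the interaction also passed for Lpin1 (-4.00, adjusted p = 0.00247), Pklr (-2.31, adjusted p = 0.00031), Insig2 (2.62, adjusted p = 0.00724), Hsd3b7 (1.59, adjusted p = 0.00423), Abcb11 (1.58, adjusted p = 0.00512), Cbs (1.73, adjusted p = 0.00445) and Foxo3 (-1.43, adjusted p = 0.000381). It did not pass for Per1 (-3.20, adjusted p = 0.12), Noct (-2.76, adjusted p = 0.106), Alas1 (-3.12, adjusted p = 0.0685) or Hspa8 (-2.10, adjusted p = 0.101), so a difference from KO is not shown for these. For Pck1, uncalled in WT, the KO value was 1.97 ± 0.64 and the difference 0.07 ± 0.88 (adjusted p = 1). Irs2 is one of 9 genes whose time effect differed without a WT call: -1.14 ± 0.37 in WT, 1.71 ± 0.37 in KO (difference 2.85 ± 0.52, adjusted p = 0.0074).

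**Figure D4:**
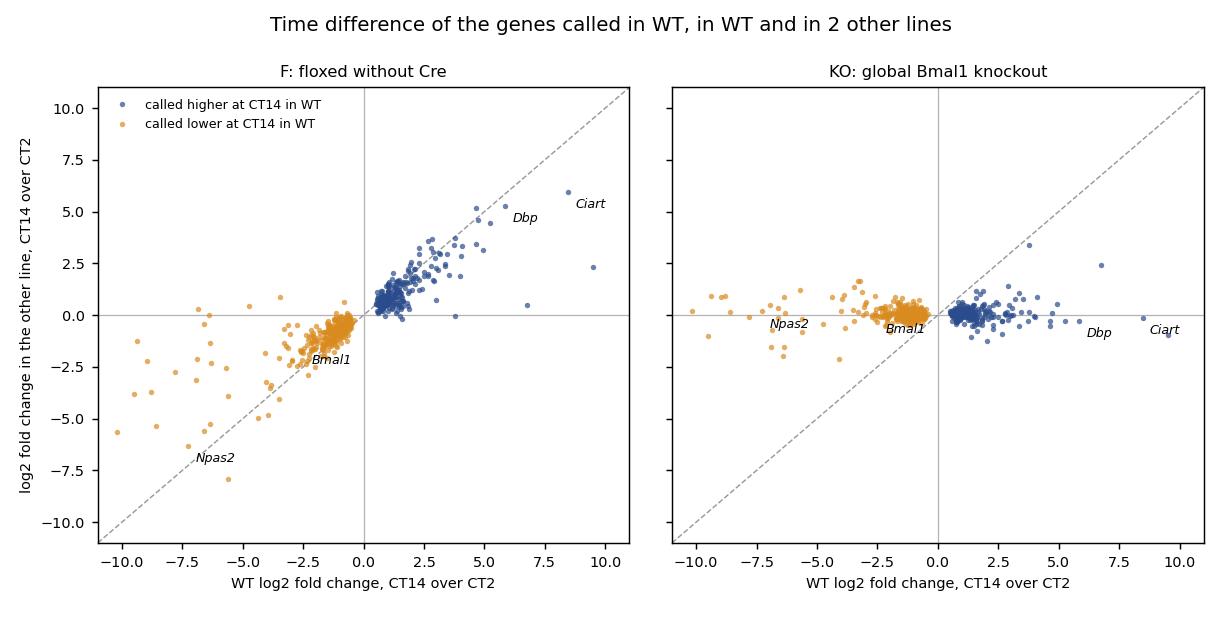
Log2 fold change CT14 over CT2 of the 521 genes called in WT, on the x axis, against the same in F and in KO on the y axis, 1 point per gene. The F points rise along the diagonal with Pearson's r of 0.861 (0.198 over all genes tested), and the KO points lie around 0 on the y axis with 0.0328 (-0.0131 over all genes tested).

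The authors' deposited table of the same WT comparison, a DESeq2 result, calls 1102 genes at an adjusted p under 0.05, 538 higher and 564 lower at CT14. Of the 521 calls made here, 452 had the same direction and a call there (86.8%), which is 41.0% of the calls in the authors' deposited table. For Per2 the authors' deposited table gives a log2 fold change of 3.74. For Clock, uncalled here, the authors' deposited table gives -0.81 with an adjusted p of 0.00485, and for Nr1d1 0.82 with 0.225.

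Over all genes with a window from 250 bases before to 50 after the start, the elements of the clock loop were counted in the called genes as a description. The E-box (CACGTG, searched on both strands) stood in 15.2% of 164 genes that rose and 12.6% of 207 that fell, beside 10.8% of 12864 tested genes. The D-box (TTATGTAA or TTACGTAA, both strands) stood in 6.71% of those that rose, 11 genes with Per3 and Coq10b among them, in 1.45% of those that fell and in 1.05% of all tested. The RORE stood in 2 of the genes that fell, Bmal1 and Hps1, and in none of those that rose, beside 0.326% of all tested. The heat shock element, TTC, GAA and TTC with any 2 bases between them on either strand, stood in 5 genes that rose, Hsph1 among them (3.05%), and in 0.483% of those that fell, beside 0.56% of all tested. No window was given for Per2, Wee1, Bhlhe40, Gys2 and Hspa8.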

How the data were processed

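Polyadenylated liver RNA was sequenced from a stranded library kit, per the labels' protocols, in 24 libraries, 3 for each of 4 genotypes at CT2 and at CT14. The gene table the authors deposited holds estimated counts without normalization. A second table deposited by the authors holds TPM, which are corrected for transcript length. The authors' deposited DESeq2 table for WT holds log2 fold changes, p-values (raw and adjusted) and a mean normalized signal. Its formula and filters are unknown here. Per the submitters' processing notes the tools were fastp 0.23.2, HISAT2 2.2.1 and StringTie 1.3.1, with GRCm39 as the genome. Annotation release and strand setting: not given in the sources used here, so overlapping and near-identical genes may have exchanged reads. In the WT libraries the estimated counts 4, 8 and 12 stood out over neighbouring counts by 1.46 to 1.58 times, so low counts are less precise than they look. Symbols came from the authors' deposited table for 15453 tested genes and from the reference for 4419, and 642 had none. Promoter windows are on build GRCm38.p6 and were matched by symbol.

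Of 56941 genes 33118 had a count. Of these, 20514 passed edgeR's filterByExpr (version 4.0.16, R 4.3.3), set on the 8 groups with a minimum count of 10 and a minimum total of 15. The whole-number counts of all 24 libraries entered a robust quasi-likelihood model, scaled by TMM, with a mean for each of the 8 groups and 16 residual degrees of freedom. Benjamini-Hochberg adjusted p-values under 0.05 over all genes tested were counted as calls. Contrasts were CT14 against CT2 in WT, F and KO, and the differences of that effect, F minus WT and KO minus WT. CPM are counts scaled by library total and TMM factor. 0 columns were without a sample. The test was checked on simulated data. Alternatives were DESeq2 1.42.0 and its size factors, no filter, counts divided by 4, the WT libraries alone, a fit without 7 libraries of other genotypes, limma 3.58.1 on log2(TPM + 1) and log2(TPM + 0.1) at a mean TPM of at least 0.5, a replicate block and leaving out each WT library.

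Named genes are the 14 largest rises and 14 largest falls among called genes with a symbol, a mean of at least 1 CPM and groups that do not overlap, all members of the clock lists, the called members of the other lists up to the 6 with the smallest p, and up to 8 genes per interaction. Further list members are named with their values, and some genes that the rule takes are not reported here. The comparison and the lists were chosen with earlier results of these data known, so no list is independent evidence. Plin1, Cidea, Lep and Retn were not tested, and Lcn13 and Hbb-bs were not found.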

Additional observations from a re-analysis of the deposited data

Results flagged for a closer look

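The effect of time differed between KO and WT, by the interaction test of edgeR's quasi-likelihood model, in 164 genes. For the genes named, the difference of the log2 fold change (KO minus WT) was 7.44 for Npas2, 2.39 for Bmal1 and 2.85 for Asap2, all high by day in WT. It was -8.61 for Ciart, -6.12 for Dbp, -5.51 for Usp2, -4.65 for Per3 and -4.01 for Per2. It was -3.11 for Tef, -2.84 for Wee1, -1.95 for Nr1d2 and -1.02 for Cry2. Outside the clock lists it was -5.15 for Thrsp, -3.88 for Hcn3 and -2.01 for Gys2. In KO each of these genes had an adjusted p above 0.05 for the time difference itself.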

How the results depend on the processing

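The directions of all called genes named in the text were kept under every alternative that gave a value. What moved was the side of the threshold. Followed through the alternatives were 118 called genes, a few of them not named in the text. Of these, 71 were called in all 6 fits that left out 1 WT library. Leaving out 1 WT library gave 270 to 414 calls in WT (127 to 165 higher, 143 to 255 lower), 0 to 2 for F minus WT and 101 to 158 for KO minus WT. DESeq2 called 979 genes in WT (436 higher, 543 lower), 28 for F minus WT and 412 for KO minus WT. Without 7 libraries of other genotypes, which leaves KO with 1 library at each time, assumed to vary like the others, the counts were 988 (444 higher, 544 lower) and 66 for KO minus WT (25 higher, 41 lower, against 103 and 61). In limma on log2(TPM + 1) KO minus WT had 84 higher and 77 lower. With the WT libraries alone 407 genes were called, 211 higher and 196 lower, so the excess of falls turned over, and 41 of the 118 followed calls were lost. The replicate numbers did not pair the samples: deviations of same-numbered WT libraries correlated at 0.00197, -0.0499 and 0.00136. With a replicate block 307 genes were called (139 higher, 168 lower), 1 for F minus WT and 83 for KO minus WT, and 29 of the 118 followed calls were lost. The cause of these shifts was not tested. Among uncalled genes the sign of the log2 fold change turned for Amy2a5 (-7.91 to 3.15 over the fits without 1 WT library), Cfd (-7.52 to 0.99 over the fits without 1 WT library) and Csnk1e (-0.049 to 0.17 over the fits without 1 WT library). It also turned for Fbxw11 (-0.0895 to 0.0182 over the fits without 1 WT library, 0.0132 and 0.014 in limma with the larger and the smaller pseudocount), Gsk3b (-0.0152 to 0.18 over the fits without 1 WT library, -0.0626 and -0.0714 in limma with the larger and the smaller pseudocount) and Rora (-0.0874 to 0.14 over the fits without 1 WT library, -0.00341 and -0.00346 in limma with the larger and the smaller pseudocount). The grain of the low counts limits what can be said of genes such as Ciart by day and Npas2 at night.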

Other observations

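The genes in these paragraphs belong to no list and were chosen after their values were seen. Among the falls were surface receptors and junction proteins. Avpr1a, the vasopressin receptor of liver, measured 93.3, 114 and 79.5 CPM by day and 24.5, 15.03 and 29.8 CPM by night (log2 fold change -2.05 ± 0.24, adjusted p = 2.32e-05), and Agtr1a, the angiotensin receptor, 58.9, 68.9 and 63.2 CPM by day and 31.9, 22.3 and 26.1 CPM by night (log2 fold change -1.25 ± 0.18, adjusted p = 0.000345). The night libraries of both were far below the day libraries. Of tight junction proteins, Cldn1 measured 79.7, 107 and 93.2 CPM by day and 20.6, 20.03 and 37.2 CPM by night (log2 fold change -1.85 ± 0.31, adjusted p = 0.00123) and Cgn 43.2, 55.8 and 35.7 CPM by day and 14.96, 22.3 and 17.9 CPM by night (log2 fold change -1.29 ± 0.21, adjusted p = 0.000856). Tjp3, a scaffold of the same junction, fell by 1.39 on the log2 scale (adjusted p = 0.0091). The tubulin genes Tubb2a and Tubb2b, near-identical copies whose reads may have been exchanged, had log2 fold changes of -2.03 ± 0.46 and -2.10 ± 0.48 (adjusted p = 0.0175 and 0.0193). The call of Tjp3 was lost without CT14 replicate 1 or without CT14 replicate 2 (adjusted p up to 0.0814). The call of Tubb2a was lost without CT2 replicate 2 or without CT14 replicate 1 or without CT14 replicate 2 (adjusted p up to 0.11). The call of Tubb2b was lost without CT2 replicate 2 or without CT14 replicate 2 (adjusted p up to 0.113). Other settings gave an adjusted p of 0.118 for Tjp3, 0.0802 for Tubb2a and 0.0859 for Tubb2b with the 6 WT libraries alone in the fit.

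Among the rises were secreted factors, Klf factors and mitochondrial enzymes. Nrg4, a ligand that liver and fat secrete, measured 2.75, 1.29 and 2.47 CPM by day and 13.96, 16.8 and 10.7 CPM by night (log2 fold change 2.67 ± 0.46, adjusted p = 0.00185). Tsku, another secreted protein of liver, measured 35.1, 34.6 and 24.4 CPM by day and 139.98, 245 and 207 CPM by night (log2 fold change 2.65 ± 0.69, adjusted p = 0.0473). Klf15 and Klf13, zinc-finger regulators of metabolism, rose by 1.17 ± 0.20 and 1.38 ± 0.21 (adjusted p = 0.0019 and 0.000431). St3gal5, the synthase of ganglioside GM3, measured 60.2, 52.02 and 49.4 CPM by day and 212, 316 and 264 CPM by night with little spread (log2 fold change 2.29 ± 0.18, adjusted p = 1.54e-07). Pdhb and Pdhx, parts of the pyruvate dehydrogenase complex, rose by 0.81 ± 0.14 and 0.61 ± 0.15 (adjusted p = 0.00209 and 0.0255). Genes of coenzyme Q moved apart: Coq10b rose (log2 fold change 2.51 ± 0.33, adjusted p = 0.000134), and Coq8a fell by 1.5 (adjusted p = 0.008). Adck5, not counted as a coenzyme Q gene here, fell by 1.36 (adjusted p = 9.14e-06). Crot, which moves chains from peroxisomes, and Clpx, of the mitochondrial protease that also acts on ALAS1, fell by 2.28 and 2.33 (adjusted p = 0.00132 and 0.000234). The call of Tsku was lost whichever of the 6 WT libraries was left out (adjusted p up to 0.169). The call of Pdhx held only without CT2 replicate 2 or CT14 replicate 1 (adjusted p up to 0.177). The call of Coq8a was lost without CT14 replicate 2 (adjusted p up to 0.0748). By setting, the adjusted p became 0.053 for Tsku with DESeq2 size factors, and 0.116 for Tsku and 0.058 for Pdhx without the filter on low counts, and 0.0742 for Pdhx with the 6 WT libraries alone in the fit.

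A group of near-identical zinc-finger genes rose in WT, with Zfp970 at 16.98, 8.47 and 8.33 CPM by day and 104, 129 and 23.7 CPM by night (log2 fold change 2.92 ± 0.73, adjusted p = 0.0361). The calls of Zfp969, Gm14387, Gm14403, Gm14405 and Gm14416 had log2 fold changes of 1.51, 3.06, 2.41, 3.18 and 3.36. CT14 replicate 3 was the lowest night library for each of the 6, and reads may have been exchanged between them. The calls of Zfp969, Zfp970, Gm14387, Gm14403, Gm14405 and Gm14416 held only without CT14 replicate 3 (adjusted p up to 0.236, 0.174, 0.176, 0.159, 0.193 and 0.149, respectively).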
